A study of Homo sapiens with 15 samples.

Results

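Integrins are the cell-surface receptors that hold a cell to its matrix, and laminins are the matrix proteins that many of them hold on to. The genes described here are the human integrin alpha and beta chains and the laminin alpha, beta and gamma chains. They were chosen by gene symbol alone, as every symbol made of ITGA or ITGB and a chain name, or of LAMA, LAMB or LAMC and a digit. The rule gave 38 genes of the 60675 in the count table, of which 26 encode integrin chains and 12 encode laminin chains.

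An integrin is a pair of an alpha and a beta chain, and the pair decides the ligand: collagens, laminins, or proteins that carry the short Arg-Gly-Asp (RGD) motif, such as fibronectin and vitronectin. A laminin is a trimer of an alpha, a beta and a gamma chain that polymerises into the basement membrane, the thin sheet under epithelia. Human pluripotent cells in culture adhere to laminin largely through the pair of ITGA6 and ITGB1, while epithelia anchor to the epithelial laminin that holds LAMA3 and LAMB3 through the pair of ITGA6 and ITGB4, the core of the hemidesmosome.

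The cells were of the established human embryonic stem cell line H9, wild type in genotype, which was kept undifferentiated on Matrigel, a laminin-rich basement membrane extract. All groups were driven toward bone-forming cells and were collected on day 7, after a first phase of undirected differentiation in serum medium and a second, from day 5, with vitamin D3, β-glycerophosphate and ascorbic acid. Particles were present from day 0. SRM_IC50 received a NIST standard reference material at 5.9 µg/mL and SRM_IC25 the same material at 0.003 µg/mL. FPM_IC50 received fine particulate matter at 1.4 µg/mL and FPM_IC25 received it at 0.00062 µg/mL. UNT received the DMSO vehicle at 0.1%. IC50 and IC25 are the labels' names for inhibitory concentrations based on protein. Each group had 3 libraries of polyadenylated RNA. Whether the 3 were grown as separate cultures is not stated, so p-values describe the spread among libraries and that spread may be technical.

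Total counts were 12.04 to 29.25 M (mega-counts) per library at SRM_IC50, 13.17 to 51.16 M at SRM_IC25, 9.77 to 19.5 M at FPM_IC50, 9.341 to 58.24 M at FPM_IC25 and 17.29 to 20.08 M in UNT. The FPM libraries stood apart in 1 respect that touches these genes: genes annotated as antisense took 1.21% ± 0.252 of counts at FPM_IC50 and 1.07% ± 0.173 at FPM_IC25, against 0.282% ± 0.00768 in UNT (n = 3 each, ± SD). As a check of the osteogenic label, 4 of 6 osteoblast markers passed the expression filter, and the mature marker IBSP did not exceed 3 counts in any library. The osteoblast markers summed to 579.5 to 711.3 CPM (counts scaled to library size) at SRM_IC50 and 402.6 to 513.0 CPM in UNT. Of the 4 tested, only ALPL was called, as higher. Pluripotency markers were higher there too, and which cells the ALPL reads came from was not tested. Markers of pluripotent cells summed to 2502 to 3017 CPM at SRM_IC50, 1245 to 1314 CPM at SRM_IC25, 1220 to 1528 CPM at FPM_IC50, 1213 to 1227 CPM at FPM_IC25 and 1634 to 1873 CPM in UNT.

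Sequence upstream of the members was searched for motifs of factors known from epithelial genes, because epithelial chains were among those that moved at SRM_IC50. RefSeq windows (GRCh38.p14, 250 bases before to 50 after a start) existed for 26 of the 38 members. The windows were searched on both strands for TGANTCA (AP-1), AACNGGTT (GRHL), GCCNNNGGC (TFAP2) and CACCTG (SNAI and ZEB), which do not share letters at any match shown. The 250 bases before the start are shown 5′ to 3′ for the lowered chains ITGB6 (chr2:160200273-160200522, minus strand) and LAMB3 (chr1:209651375-209651624, minus strand) and for the raised chains ITGA6 (chr2:172427086-172427335, plus strand) and LAMA2 (chr6:128882888-128883137, plus strand), with each match in capitals.
ITGB6: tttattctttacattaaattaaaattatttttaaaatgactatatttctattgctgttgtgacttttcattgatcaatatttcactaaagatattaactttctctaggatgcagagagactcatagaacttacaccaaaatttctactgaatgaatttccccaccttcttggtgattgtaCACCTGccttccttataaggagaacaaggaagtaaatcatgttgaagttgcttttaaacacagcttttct
LAMB3: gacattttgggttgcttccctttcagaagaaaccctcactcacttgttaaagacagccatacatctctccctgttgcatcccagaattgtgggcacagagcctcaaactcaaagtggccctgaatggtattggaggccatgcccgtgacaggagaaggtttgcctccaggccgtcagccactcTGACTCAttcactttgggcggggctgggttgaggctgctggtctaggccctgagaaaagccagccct
ITGA6: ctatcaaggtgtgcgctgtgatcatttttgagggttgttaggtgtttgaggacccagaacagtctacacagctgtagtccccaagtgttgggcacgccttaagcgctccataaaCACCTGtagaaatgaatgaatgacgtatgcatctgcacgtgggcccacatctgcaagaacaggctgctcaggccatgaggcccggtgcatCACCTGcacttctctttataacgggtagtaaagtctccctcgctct
LAMA2: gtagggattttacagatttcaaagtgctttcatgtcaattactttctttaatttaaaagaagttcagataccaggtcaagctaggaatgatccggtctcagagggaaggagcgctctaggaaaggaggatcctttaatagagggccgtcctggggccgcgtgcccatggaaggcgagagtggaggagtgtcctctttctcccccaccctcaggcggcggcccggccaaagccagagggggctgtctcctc
The ITGB6 window held 1 match, CACCTG, beginning 70 bases before the start. Its GC content was 31.7%, against a median of 58.7% over all 35114 windows, and it had 0 CpG dinucleotides, as had 3.96% of all windows. The LAMB3 window shown, for 1 of 3 RefSeq starts of that gene, held an AP-1 match, TGACTCA, beginning 67 bases before the start, and its start lay within the GENCODE gene body. The ITGA6 window shown, for 1 of 2 starts, held CACCTG beginning 136 and 46 bases before the start, and the LAMA2 window held none of the 4 motifs. The other ITGA6 window held no CACCTG and a TFAP2 match beginning 92 bases before its start. Another LAMB3 window held CAGGTG, the reverse complement of CACCTG, beginning 218 bases before its start. The remaining LAMB3 window held a TFAP2 match beginning 26 bases after its start, and neither of these 2 windows held an AP-1 match. Of the 33 windows of the 26 members, AP-1 matched in 3 (ITGA5, LAMA3 and LAMB3), against 7.71% of all windows. CACCTG matched in 8 of the 33, against 20.6% of all windows, TFAP2 in 9, against 23.2%, and GRHL in 0, against 1.73%. By gene, CACCTG stood in a window of 3 of the 4 lowered chains that had one (ITGB5, ITGB6 and LAMB3) and of 1 of the 3 raised (ITGA6). A gene counted if any of its windows matched, and ITGB5, LAMB3 and ITGA6 had several windows with CACCTG in only 1. The share of all windows is therefore not a background for these counts by gene, and no difference is drawn from them. A match is a description of letters, not evidence of binding.

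The receptor and laminin chains covered a wide range of levels per length, as FPKM (mean ± SD, n = 3). At SRM_IC50, ITGB1, the beta chain that pairs with most alpha chains, led with 97.9 ± 15.8 FPKM. LAMB1 (39.8 ± 5.41 FPKM) and LAMC1 (34.7 ± 9.64 FPKM) followed, the beta and gamma chains of most early embryonic laminins. ITGAV had 23.1 ± 2.62 FPKM there, ITGA6 20.01 ± 2.85 FPKM and ITGB5 17.6 ± 2.06 FPKM. In UNT the same 3 chains led, with 106 ± 10.9 FPKM for ITGB1, 60.6 ± 5.05 FPKM for LAMB1 and 42.1 ± 8.799 FPKM for LAMC1. ITGB5 (28.5 ± 1.097 FPKM) and ITGAV (28.3 ± 2.44 FPKM), which pair as a vitronectin receptor, did not differ beyond their spread. LAMA5 had 17.9 ± 3.71 FPKM in UNT, LAMB2 16.1 ± 2.44 FPKM and ITGA6 13.4 ± 1.77 FPKM. The mean of ITGA6 was thus above that of ITGB5 at SRM_IC50, within their spread, and below it in UNT. Of the 37 neighbouring pairs in the UNT order, 27 had overlapping ranges over the 3 libraries and 10 did not.

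An expression filter left 31 of the 38 members for testing. The 7 others were the beta chain LAMB4, the platelet chain ITGB3 and the leukocyte chains ITGAD, ITGAL, ITGAM, ITGAX and ITGB7. Their highest counts in any library were 16 for LAMB4, 14 for ITGB3, 2 for ITGAD, 3 for ITGAL, 14 for ITGAM, 16 for ITGAX and 15 for ITGB7. ITGAX, the alpha chain of a complement receptor, had 16, 8 and 6 counts at SRM_IC50 and 3, 0 and 1 in UNT. ITGAM, its close relative, had 14, 6 and 3 counts at SRM_IC50 and 1, 3 and 0 in UNT. Some libraries of both were below a floor of 3 counts, which covers counting error only. With no filter on low counts edgeR called ITGAX higher at SRM_IC50 than in UNT (adjusted p = 0.00959), while ITGAM was called between the SRM doses only (adjusted p = 0.00937, against 0.0912 at SRM_IC50 against UNT). Exons of the opposite-strand gene ZNF740 cover 42.1% of the exon bases of ITGB7, and ZNF740 averaged 59.5 CPM at SRM_IC50. The few reads of ITGB7, at most 15 in a library, are therefore uncertain, because the strand setting of the counting is not given.

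The epithelial integrin beta chains ITGB4 and ITGB6 and the laminin beta chains LAMB1 and LAMB3 were lower with high-dose SRM, and another set of chains was higher. At SRM_IC50 against UNT, 11 of the 31 tested members changed (edgeR's quasi-likelihood test, Benjamini-Hochberg adjusted over all 19012 genes tested), while 17.6% of all tested genes were called. Of the 11, 5 were higher, where 7.96% of all genes were called, and 6 were lower, where 9.59% were. By kind, 6 of 20 tested integrin chains and 5 of 11 tested laminin chains were called. The median log2 fold change over the 31 was 0.05, against 0.00 over all genes, so the members had no common direction. For 10 of the 11 the 3 SRM_IC50 libraries lay wholly apart from the 3 UNT libraries. The members were called on these same libraries, so the separation is no added support, and no share over all genes is given. The uncalled ITGA3 and ITGAV also had their libraries apart. In bulk RNA, fewer cells of a type and less RNA per cell cannot be told apart.

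**Figure D1:**
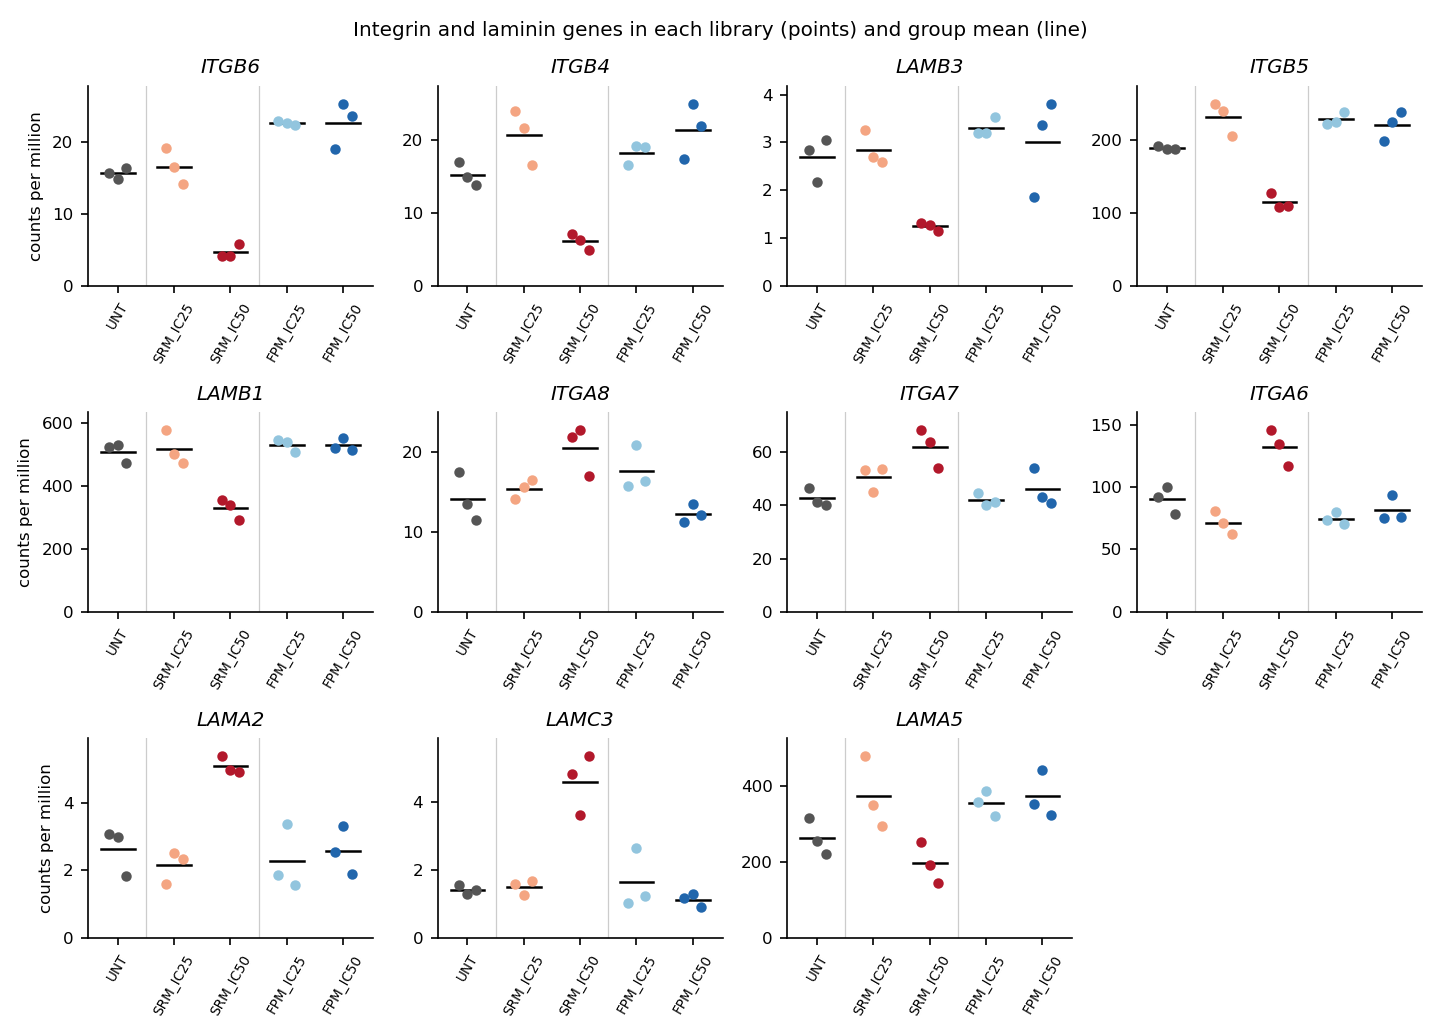
CPM (vertical axes, from 0) of 10 members that changed at SRM_IC50 against UNT, and of LAMA5, in each of 15 libraries (points) with the group mean (line); groups run from vehicle to high dose for SRM and then low to high for FPM. ITGB6, ITGB4 and ITGB5 have their SRM_IC50 points below all other points, and LAMC3 and ITGA6 have them above.

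Among the RGD-binding integrins, ITGB6 (chr2:160099666-160200313, minus strand, GRCh38) changed most. It pairs with ITGAV on epithelia and activates latent TGF-beta. ITGB6 had 4.17, 4.12 and 5.803 CPM at SRM_IC50, against 15.6, 14.8 and 16.4 CPM in UNT. That was a log2 fold change of -1.77 (adjusted p = 5.13e-07, SE 0.15), with no overlap. It had 19.1, 16.5 and 14.1 CPM at SRM_IC25, 18.99, 25.2 and 23.6 at FPM_IC50 and 22.8, 22.6 and 22.3 at FPM_IC25, so the SRM_IC50 libraries were below all others and the 6 FPM libraries were above every UNT library. ITGB5 (chr3:124761948-124901418, minus strand), the vitronectin receptor's beta chain, had 127, 108 and 109 CPM at SRM_IC50 and 192, 188 and 189 CPM in UNT. ITGB5 fell, with a log2 fold change of -0.72 (adjusted p = 4.37e-05, SE 0.09). The UNT libraries were within a narrow band, and every SRM_IC50 library was below it. ITGB5 had 249.9, 239.8 and 206 CPM at SRM_IC25, 199.5, 225 and 239.5 at FPM_IC50 and 222, 226 and 239.5 at FPM_IC25, all above every UNT library.

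ITGA8 (chr10:15513949-15720125, minus strand), the receptor for nephronectin in kidney and mesenchyme, went the other way. It had 21.9, 22.8 and 16.97 CPM at SRM_IC50 and 17.6, 13.5 and 11.5 CPM in UNT, a log2 fold change of 0.54 (adjusted p = 0.0248, SE 0.16). 1 SRM_IC50 library lay below the highest UNT library, so the groups overlapped. ITGA8 had 14.1, 15.6 and 16.5 CPM at SRM_IC25, 11.2, 13.5 and 12.1 at FPM_IC50 and 15.7, 20.8 and 16.4 at FPM_IC25. The other RGD-binding chains did not pass the test. ITGAV, the partner of both lowered beta chains, averaged 192 ± 15.4 CPM at SRM_IC50 and 239 ± 14.1 CPM in UNT (n = 3 each, ± SD; adjusted p = 0.0772). ITGA5, the fibronectin receptor's alpha chain, averaged 86.3 ± 14.4 CPM at SRM_IC50 and 75.9 ± 16.2 CPM in UNT (adjusted p = 0.433). ITGB8, which also pairs with ITGAV and activates TGF-beta, averaged 9.598 ± 0.696 CPM at SRM_IC50 and 7.796 ± 1.56 CPM in UNT (adjusted p = 0.2599). ITGA2B, the platelet alpha chain, averaged 4.72 ± 0.7703 CPM at SRM_IC50 and 3.66 ± 1.02 CPM in UNT (adjusted p = 0.244).

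Of the 4 laminin-binding integrin chains, 2 rose and 1 fell at SRM_IC50. ITGA6 (chr2:172427354-172506282, plus strand), the alpha chain through which pluripotent and epithelial cells hold laminin, had 146, 135 and 117 CPM at SRM_IC50 and 92.2, 99.8 and 78.4 CPM in UNT. Its log2 fold change was 0.56 (adjusted p = 0.003895, SE 0.12), and each SRM_IC50 library was above each UNT library. ITGB4 (chr17:75721328-75757818, plus strand), its hemidesmosome partner, had 7.08, 6.31 and 4.92 CPM at SRM_IC50 and 17.1, 14.9 and 13.9 CPM in UNT. The log2 fold change of ITGB4 was -1.29 (adjusted p = 4.37e-05, SE 0.17), again with no overlap, so the chains of the hemidesmosome pair moved in opposite directions. ITGA7 (chr12:55684568-55716043, minus strand), best known from muscle, had 68.3, 63.7 and 54.2 CPM at SRM_IC50 and 46.4, 41.2 and 40.3 CPM in UNT. That was a log2 fold change of 0.54 (adjusted p = 0.003298, SE 0.12), without overlap. The remaining chain, ITGA3, averaged 55.2 ± 9.71 CPM at SRM_IC50 and 70.2 ± 4.61 CPM in UNT (n = 3 each, ± SD), which did not pass the test (adjusted p = 0.0926).

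In the remaining groups the same chains did not reach their SRM_IC50 values. ITGA6 had 80.98, 70.8 and 62.3 CPM at SRM_IC25, 75, 93.2 and 76.3 at FPM_IC50 and 73.2, 80.1 and 70.4 at FPM_IC25, all below every SRM_IC50 library. ITGB4 had 23.99, 21.7 and 16.6 CPM at SRM_IC25, 17.4, 24.98 and 21.9 at FPM_IC50 and 16.6, 19.2 and 19.1 at FPM_IC25, all above every SRM_IC50 library. ITGA7 had 53.1, 45 and 53.8 CPM at SRM_IC25, 54.1, 43.3 and 40.8 at FPM_IC50 and 44.8, 40.1 and 41.1 at FPM_IC25, and these values came up to just under the lowest SRM_IC50 library. The gene GALK1 lies on the opposite strand within the body of ITGB4 and averaged 19.8 CPM at SRM_IC50 and 17.3 CPM in UNT; it shares no exon bases with ITGB4.

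Of the 3 tested laminin beta chains, 2 fell. LAMB3 (chr1:209614870-209652466, minus strand), the beta chain of the epithelial laminin, had 1.32, 1.27 and 1.14 CPM at SRM_IC50 and 2.84, 2.17 and 3.05 CPM in UNT. Its log2 fold change was -1.09 (adjusted p = 0.00409, SE 0.24), with no overlap. LAMA3, the alpha chain that pairs with it, was near 1 CPM and did not pass the test, with 1.12 ± 0.282 CPM at SRM_IC50 and 0.807 ± 0.329 CPM in UNT (n = 3 each, ± SD; adjusted p = 0.385).

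LAMB1 (chr7:107923799-108003255, minus strand), the widely expressed beta chain, had the highest level of the lowered members per length, with 39.8 ± 5.41 FPKM at SRM_IC50 and 60.6 ± 5.05 FPKM in UNT (n = 3 each, ± SD). As counts, it had 355, 339 and 290.1 CPM at SRM_IC50 and 525, 528 and 471 CPM in UNT, a log2 fold change of -0.63 (adjusted p = 0.000207, SE 0.10). Every SRM_IC50 library was below every UNT library. Exons of the opposite-strand genes cover 3.575% of LAMB1's exon bases, and these genes together averaged 109.4 CPM at SRM_IC50 and 115.9 CPM in UNT. LAMB3 had 3.25, 2.69 and 2.59 CPM at SRM_IC25, 1.85, 3.37 and 3.802 at FPM_IC50 and 3.19, 3.202 and 3.53 at FPM_IC25. These values were all above the SRM_IC50 libraries. LAMB1 had 577, 500.0 and 473 CPM at SRM_IC25, 521, 551 and 515 at FPM_IC50 and 544, 540.2 and 507 at FPM_IC25, again all above SRM_IC50.

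The laminin chains LAMC3 and LAMA2, both low in UNT, rose. LAMC3 (chr9:131009082-131094473, plus strand), a gamma chain of vessels, skin and retina, showed the largest rise of the tested members. It had 4.85, 3.61 and 5.36 CPM at SRM_IC50 and 1.54, 1.29 and 1.402 CPM in UNT, a log2 fold change of 1.69 (adjusted p = 0.0004801, SE 0.28). It had 1.59, 1.25 and 1.69 CPM at SRM_IC25, 1.17, 1.29 and 0.905 at FPM_IC50 and 1.03, 2.65 and 1.24 at FPM_IC25, so each SRM_IC50 library was above all 12 others. LAMA2 (chr6:128883141-129516569, plus strand), the muscle laminin's alpha chain, had 5.39, 4.99 and 4.92 CPM at SRM_IC50 and 3.08, 2.996 and 1.83 CPM in UNT. Its log2 fold change was 0.95 (adjusted p = 0.0266, SE 0.28), without overlap. LAMA2 had 1.59, 2.51 and 2.35 CPM at SRM_IC25, 2.53, 3.32 and 1.901 at FPM_IC50 and 1.85, 3.39 and 1.56 at FPM_IC25. The call of LAMA2, like that of ITGA8, rested on single libraries: without SRM_IC50 replicate 1 or 2, or UNT replicate 2 or 3, neither passed, with adjusted p between 0.0504 and 0.113 for LAMA2 and between 0.0910 and 0.115 for ITGA8.

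LAMA1, LAMA4, LAMA5, LAMB2 and LAMC1 did not pass the test at SRM_IC50. LAMA1, an alpha chain of early embryonic basement membranes, averaged 146 ± 48.04 CPM at SRM_IC50 and 142 ± 41.8 CPM in UNT (n = 3 each, ± SD; adjusted p = 0.943). LAMA5, the alpha chain of the laminin most used by pluripotent cells, had 252, 191 and 144 CPM at SRM_IC50 and 314, 254 and 221 CPM in UNT (adjusted p = 0.183), and the groups overlapped. LAMA4, of vessels and mesenchyme, averaged 4.53 ± 1.799 CPM at SRM_IC50 and 4.53 ± 0.418 CPM in UNT (adjusted p = 0.937). LAMB2 averaged 103 ± 21.9 CPM at SRM_IC50 and 114 ± 13.96 CPM in UNT (adjusted p = 0.582). LAMC1, the main gamma chain, averaged 295 ± 73.2 CPM at SRM_IC50 and 364 ± 66.5 CPM in UNT (adjusted p = 0.312). All 4 collagen-binding alpha chains (ITGA1, ITGA2, ITGA10 and ITGA11) missed the threshold, and 0 of them had an unadjusted p under 0.05, with log2 fold changes between -0.39 and 0.34. ITGA4 and ITGA9, receptors of fibronectin, VCAM1 and tenascin, differed by 0.44 and -0.53 log2 units and did not pass. ITGB1, ITGB2 and ITGAE also did not pass. For ITGB1 the 3 libraries had 678, 586 and 523 CPM at SRM_IC50 and 656, 716 and 593 CPM in UNT, which overlapped.

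**Figure D2:**
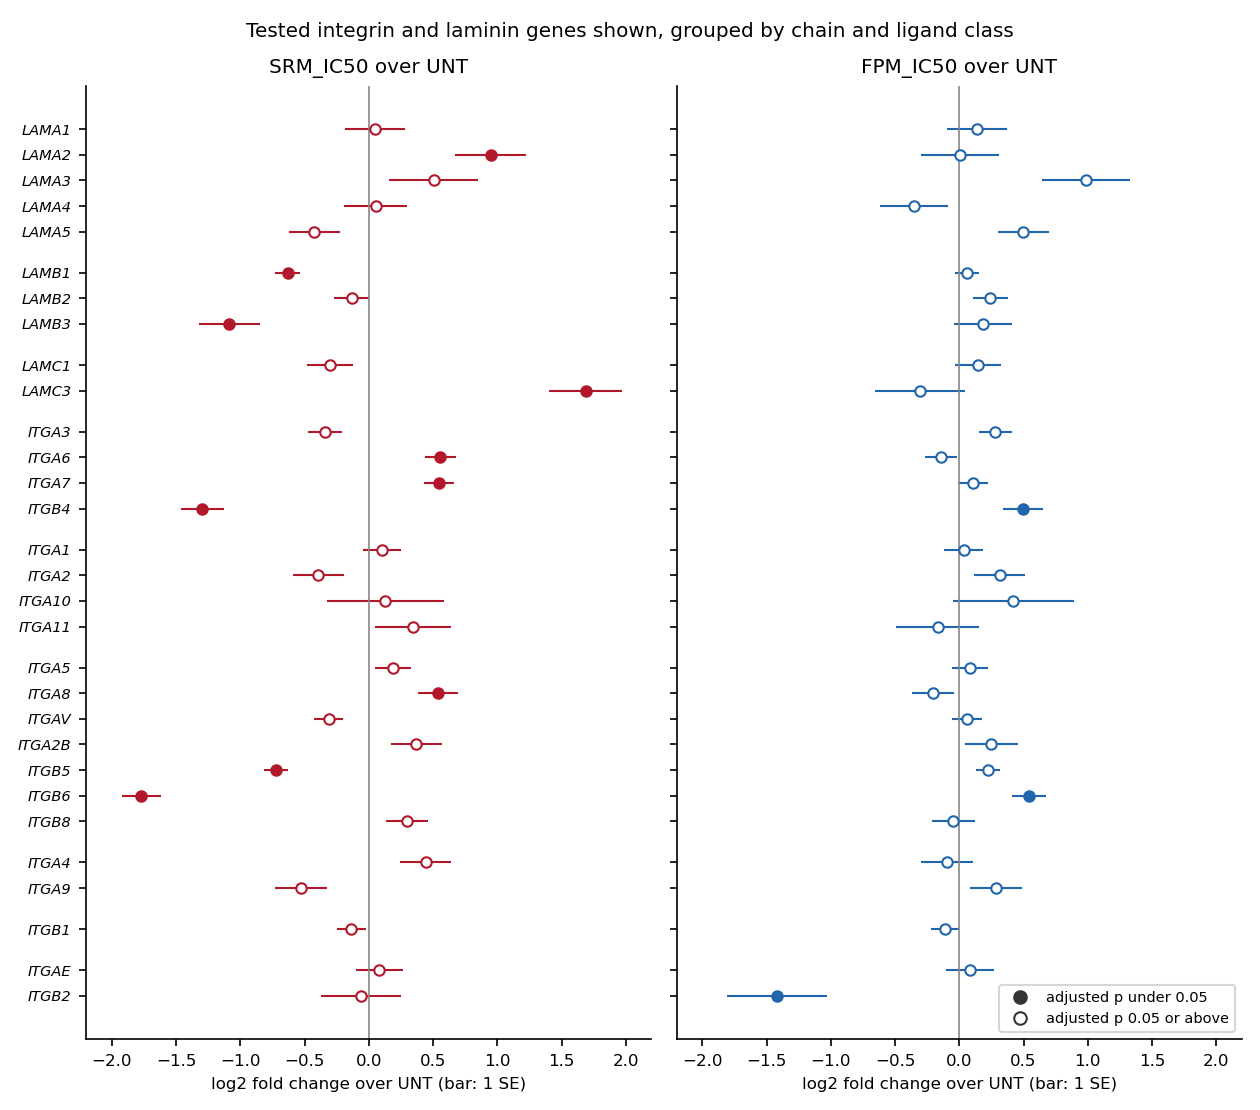
Log2 fold change over UNT (horizontal axis, bar 1 SE) of 30 tested members at SRM_IC50 (left) and FPM_IC50 (right), with rows grouped by chain and ligand class and filled points for adjusted p under 0.05. Filled points lie on both sides of 0 at SRM_IC50 (5 higher, 5 lower), and only 3 are filled at FPM_IC50.

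Markers of other cell types moved with these members. Of 10 amnion and trophoblast markers, 10 were lower at SRM_IC50 than in UNT, and their summed level was 305.8 to 334.7 CPM at SRM_IC50 and 1281 to 1521 CPM in UNT. All 7 epithelial markers were lower, summing to 2912 to 3921 CPM at SRM_IC50 and 6401 to 8684 CPM in UNT. Of 8 pluripotency markers, 6 were higher and none lower. Of 4 tested endothelial markers, 3 were higher and 1 lower, summing to 90.64 to 127.8 CPM at SRM_IC50 and 42.14 to 60.85 CPM in UNT. Of 8 mesenchyme markers, 2 were higher and 3 lower, summing to 538.1 to 696.4 CPM at SRM_IC50 and 759.7 to 796.0 CPM in UNT. Of 5 neural markers, 1 was higher and 3 lower, summing to 134.2 to 156.1 CPM at SRM_IC50 and 246.8 to 274.9 CPM in UNT. The 6 leukocyte markers summed to 1.832 to 1.966 CPM at SRM_IC50 and 4.939 to 6.07 CPM in UNT, but only 1 of them passed the expression filter, and it was lower. Of the megakaryocyte markers, PF4, GP9 and PPBP did not exceed 3 counts in any library. The part of these cell types in the changes of integrin and laminin genes was not tested.

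As shares of the summed FPKM of a chain class, several chains differed between SRM_IC50 and UNT. Among laminin alpha chains LAMA1 held 38.2% ± 3.55 of the sum at SRM_IC50 and 31.5% ± 2.53 in UNT (n = 3 each, ± SD), and LAMA5 held 57.6% ± 3.45 at SRM_IC50 and 65.9% ± 2.44 in UNT. LAMA2 held 2.23% ± 0.618 at SRM_IC50 and 0.928% ± 0.154 in UNT. The ranges over libraries were apart for all of these 3. The LAMA5 share was also above the UNT range at FPM_IC50 and FPM_IC25, and the LAMA2 share was below it at SRM_IC25 and FPM_IC50. Among laminin beta chains LAMB1 held 72.6% ± 2.25 at SRM_IC50 and 78.5% ± 1.41 in UNT, with LAMB2 making up most of the rest. The lower LAMB1 share was not particular to SRM_IC50. It was 74.2% ± 0.394 at SRM_IC25 and 75.5% ± 0.6725 at FPM_IC25, both with ranges below UNT, and SRM_IC25 overlapped SRM_IC50. At FPM_IC50 it was 76.3% ± 1.11, which overlapped UNT. LAMC1 held 91.4% ± 1.62 of the gamma chains at SRM_IC50 and 91.3% ± 0.9803 in UNT, which overlapped.

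Among integrin beta chains ITGB1 held 82.9% ± 0.992 at SRM_IC50 and 75.7% ± 1.82 in UNT, and ITGB5 held 14.9% ± 0.8396 at SRM_IC50 and 20.5% ± 1.49 in UNT. Among alpha chains ITGA6 held 23.4% ± 0.205 at SRM_IC50 and 16.7% ± 1.52 in UNT, while ITGAV held 27.1% ± 1.07 at SRM_IC50 and 35.4% ± 1.31 in UNT. The ITGAV share was also below the UNT range at SRM_IC25, with 30.6% ± 1.31. The ratio of ITGA6 to ITGA3 in FPKM, both laminin-binding alpha chains that pair with ITGB1, was 3.63 ± 0.292 at SRM_IC50, 1.31 ± 0.0378 at SRM_IC25, 1.45 ± 0.1805 at FPM_IC50, 1.29 ± 0.0517 at FPM_IC25 and 1.93 ± 0.246 in UNT. In this ratio, and in the shares of ITGB1, ITGB5, ITGA6 and ITGAV, no SRM_IC50 library reached the UNT range. Separation from UNT was not particular to SRM_IC50. The ITGB1 share was 69.3% ± 1.11 at SRM_IC25, 70.8% ± 1.32 at FPM_IC50 and 70.5% ± 1.599 at FPM_IC25, with all ranges below UNT. In these groups the ITGA6 share and the ratio were also below the UNT range, and the ITGB5 share was above it. UNT thus lay between SRM_IC50 and the other groups in these values. The ITGAV share overlapped UNT at both FPM doses. These shares are given as a description with no test; a two-sided exact permutation test of 3 libraries against 3 cannot go below p = 0.1.

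**Figure D3:**
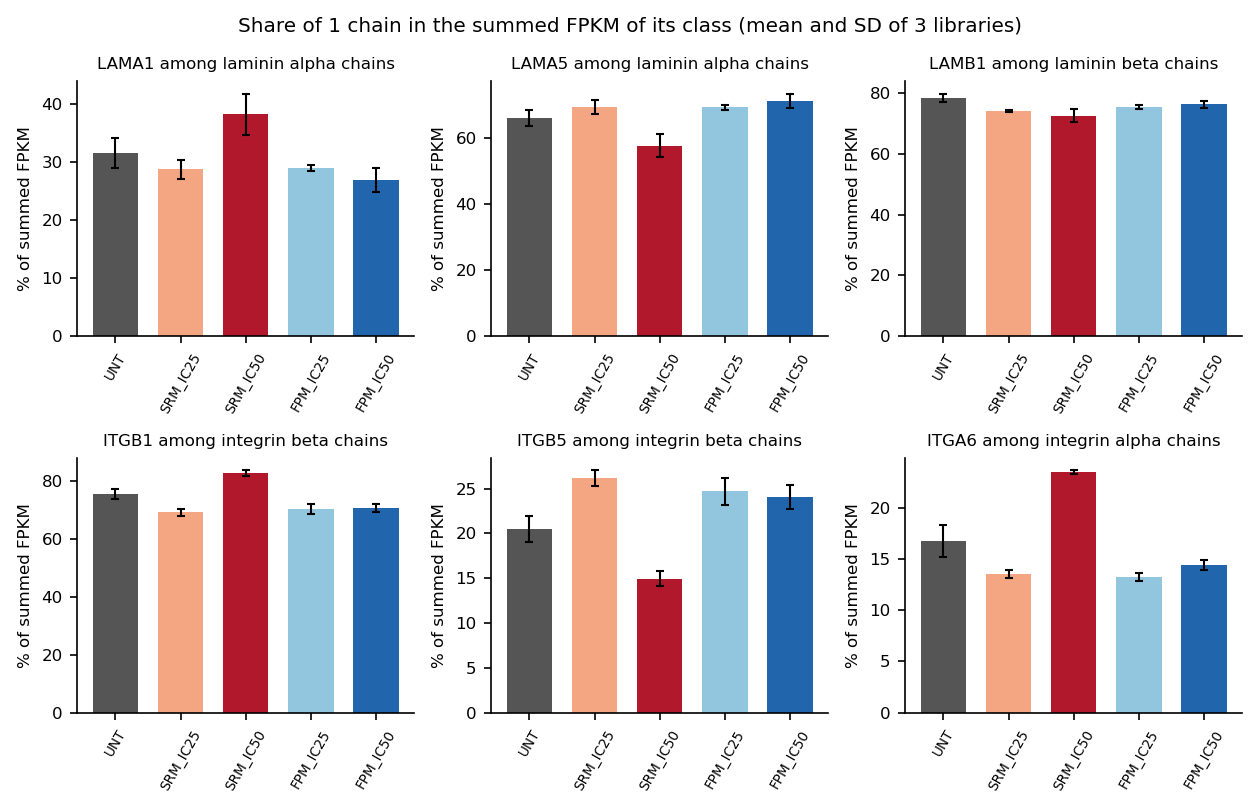
Share of 1 chain in the summed FPKM of its class (vertical axes in percent, from 0; bars are means and error bars SDs of 3 libraries) in the vehicle and the SRM and FPM doses. LAMA1, ITGB1 and ITGA6 have their highest share at SRM_IC50, and LAMA5, LAMB1 and ITGB5 their lowest.

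No member passed edgeR's test at low-dose SRM. At SRM_IC25 against UNT, 0 of 31 tested members were called by edgeR, against 4.37% of all tested genes; 6 had an unadjusted p under 0.05, and DESeq2 called 2, ITGB4 and ITGB5. ITGB5 had the smallest adjusted p, 0.0818, with the 3 SRM_IC25 libraries above the 3 UNT libraries and a log2 fold change of 0.29. ITGA6 had a log2 fold change of -0.34 (adjusted p = 0.115), opposite in sign to its value at SRM_IC50.

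Epithelial beta chains and laminin beta chains were also lower at the high than at the low SRM dose. At SRM_IC50 against SRM_IC25, 14 of 31 tested members changed, against 26.9% of all tested genes. Of these, 4 were higher, where 13.7% of all genes were called, and 10 were lower, where 13.2% were. None of the 14 had overlapping libraries, but they were called on those same libraries. The comparison shares the SRM_IC50 libraries with the one against UNT, so the values are given side by side and not as a repeat. ITGB6 had a log2 fold change of -1.85 (adjusted p = 2.16e-07, SE 0.15), ITGB4 of -1.73 (adjusted p = 1.44e-06, SE 0.17) and ITGB5 of -1.01 (adjusted p = 1.01e-06, SE 0.09). On the laminin side, LAMB3 had -1.15 (adjusted p = 0.00164, SE 0.23), and the raised LAMC3 had 1.64 (adjusted p = 0.000367, SE 0.28) and LAMA2 1.20 (adjusted p = 0.00431, SE 0.28). All 3 tested laminin beta chains were lower, since LAMB1 (-0.65) and LAMB2 (-0.50, adjusted p = 0.0109) also passed. The call of LAMB2 did not hold with a GC correction (adjusted p = 0.0763) or by limma without a filter (adjusted p = 0.0782). Amnion and trophoblast markers summed to 305.8 to 334.7 CPM at SRM_IC50 and 1264 to 1491 CPM at SRM_IC25, and epithelial markers to 2912 to 3921 CPM at SRM_IC50 and 7629 to 9169 CPM at SRM_IC25. Their part in these changes was not tested.

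LAMA5 passed between the doses. It had 252, 191 and 144 CPM at SRM_IC50 and 478, 349 and 293 CPM at SRM_IC25, a log2 fold change of -0.93 (adjusted p = 0.00279, SE 0.20). It had 352, 439.8 and 323 CPM at FPM_IC50 and 356, 385 and 319 CPM at FPM_IC25, so the low SRM dose and both FPM doses lay together. Exons of the opposite-strand genes ADRM1 and LAMA5-AS1 cover 2.53% of LAMA5's exon bases, and these genes averaged 111.6 CPM at SRM_IC50 and 111.7 CPM at SRM_IC25. ITGA3 (-0.56, adjusted p = 0.00481) and ITGA9 (-0.79, adjusted p = 0.00905) were also lower at the high dose. ITGA6 (0.89) and ITGB8 (0.69, adjusted p = 0.00515) were higher. ITGB8 averaged 9.598 ± 0.696 CPM at SRM_IC50 and 5.97 ± 0.6296 CPM at SRM_IC25 (n = 3 each, ± SD), against the fall of ITGB6, the other partner of ITGAV in TGF-beta activation.

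With fine particulate matter, 3 members were called at the high dose and 1 at the low dose. At FPM_IC50 against UNT, 3 of 31 tested members were called, against 13.6% of all tested genes: 2 were higher, where 10.8% of all genes were called, and 1 was lower, where 2.77% were. ITGB6 was higher, with 22.6 ± 3.24 CPM at FPM_IC50 and 15.6 ± 0.7998 CPM in UNT (n = 3 each, ± SD) and a log2 fold change of 0.54 (adjusted p = 0.00997, SE 0.13). ITGB4 was higher, with 21.4 ± 3.79 CPM at FPM_IC50 and 15.3 ± 1.61 CPM in UNT and a log2 fold change of 0.50 (adjusted p = 0.0488, SE 0.16). Both epithelial beta chains thus went the opposite way to their fall at SRM_IC50. The 7 epithelial markers summed to 7257 to 9170 CPM at FPM_IC50 and 6401 to 8684 CPM in UNT, which overlapped. Of the 10 amnion and trophoblast markers, 4 were higher at FPM_IC50 than in UNT (CGA, CYP19A1, GATA2 and ERVW-1) and 0 lower, with sums of 1260 to 1867 CPM at FPM_IC50 and 1281 to 1521 CPM in UNT. Of the 8 pluripotency markers 3 were lower (SOX2, LIN28A and PRDM14). The part of these cell types was not tested. ITGB2, the beta chain of the leukocyte integrins, had 7, 9 and 2 counts at FPM_IC50 and 27, 18 and 18 counts in UNT, under 2 CPM in every library, and a log2 fold change of -1.42 (adjusted p = 0.0197, SE 0.39). Exons of the antisense gene ITGB2-AS1 cover 4.46% of the exon bases of ITGB2, and the strand setting of the counting is not given. The 6 leukocyte markers summed to 6.331 to 9.07 CPM at FPM_IC50 and 4.939 to 6.07 CPM in UNT, with CD3E at no more than 3 counts in any library. Only 1 of the 6 passed the expression filter, and it was not called at FPM_IC50.

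None of these 3 calls held without FPM_IC50 replicate 2 (adjusted p between 0.0721 and 0.258). Only ITGB6 held without FPM_IC50 replicate 3 and only ITGB2 without UNT replicate 2, while leaving out UNT replicate 1 ended the call of ITGB2 (adjusted p = 0.0569) and leaving out UNT replicate 3 that of ITGB4 (adjusted p = 0.169). At FPM_IC25 against UNT, 1 of 31 was called, against 14.2% of all tested genes and 10.7% called higher. That member was ITGB6 again, with a log2 fold change of 0.53 (adjusted p = 0.0104, SE 0.13) and libraries apart from UNT, and leaving out UNT replicate 2 ended the call (adjusted p = 0.0531). The FPM comparisons share the UNT libraries. Of 22 tested members with a gene on the opposite strand across them, 6 had a higher level of that gene at FPM_IC50, and 8 at FPM_IC25, than in every UNT library. The same count was 1 at SRM_IC50 and 0 at SRM_IC25. The share over all genes was not computed, so these counts are not read as a result about the members. For LAMA1 the opposite-strand genes averaged 5.28 CPM at FPM_IC50, against 0.0407 CPM in UNT. Their part in the members' values was not tested. ITGB6 has no opposite-strand gene within 5 kb, and in a fit of such genes alone its call at FPM_IC50 did not hold (log2 fold change 0.61, adjusted p = 0.103).

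No member was called between the doses of fine particulate matter. At FPM_IC50 against FPM_IC25, 0 of 31 tested members were called by edgeR, against 0.0105% of all tested genes, and DESeq2 also called 0. Of the members, 2 had an unadjusted p under 0.05, ITGA8 (log2 fold change -0.52, adjusted p = 0.736) and ITGA4 (-0.47, adjusted p = 1). The concentrations of the particles differ at the same inhibitory level, so the particle types were compared by the difference of their dose effects.

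The dose effect differed between the particles for 10 of 31 tested members, against 14.6% of all tested genes. This is the log2 fold change of SRM_IC50 over SRM_IC25 minus that of FPM_IC50 over FPM_IC25. It was above 0 for 3 members, where 6.59% of all genes were called, and below 0 for 7, where 8.01% were. ITGB4 differed by -1.97 (adjusted p = 2.63e-05, SE 0.23) and ITGB6 by -1.86 (adjusted p = 1.2e-05, SE 0.20) log2 units, and ITGB5 by -0.96 (adjusted p = 0.000135, SE 0.13). LAMC3 differed by 2.17 (adjusted p = 0.00297, SE 0.43), ITGA8 by 0.94 (adjusted p = 0.00997, SE 0.22) and ITGA6 by 0.76 (adjusted p = 0.00731, SE 0.17), the 3 above 0. The laminin chains LAMA5, LAMB1 and LAMB3 differed by -1.0, -0.65 and -1.02 log2 units. The call of LAMB3 (adjusted p = 0.0419) did not hold without any single 1 of the 12 libraries other than FPM_IC50 replicate 1. That of LAMA5 (adjusted p = 0.0269) did not hold without FPM_IC25 replicate 1 or 3, FPM_IC50 replicate 2, SRM_IC25 replicate 1 or SRM_IC50 replicate 2, with adjusted p between 0.0534 and 0.0718.

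**Figure D4:**
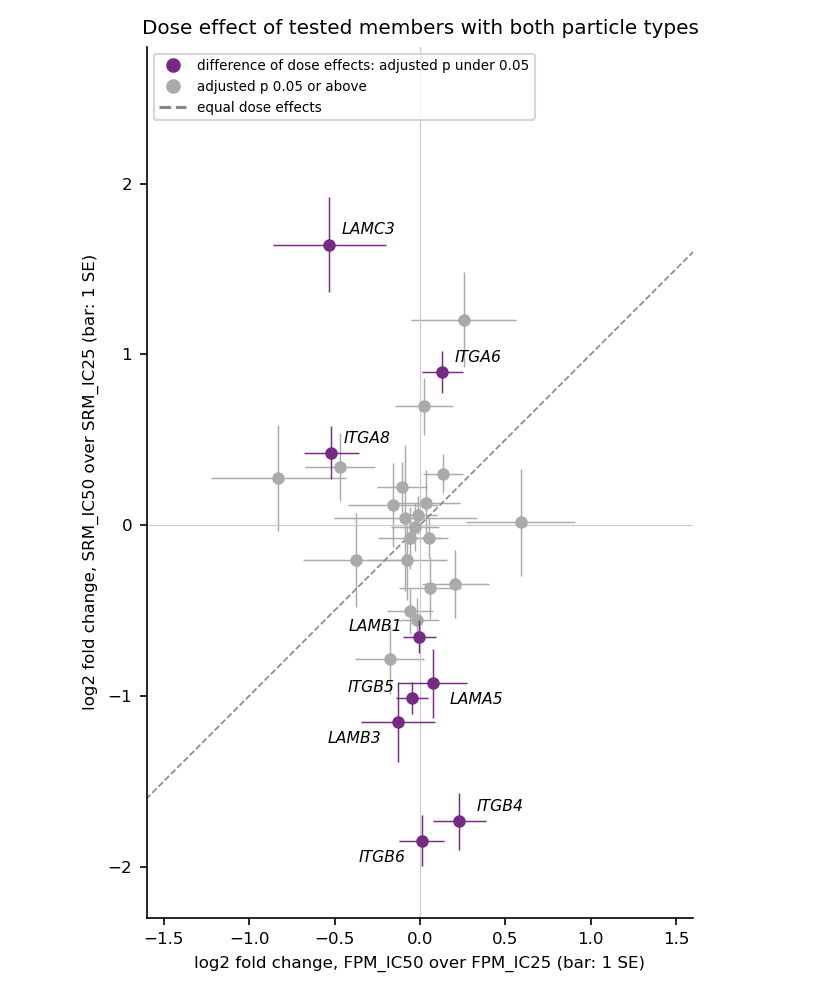
Log2 fold change of SRM_IC50 over SRM_IC25 (vertical axis) against that of FPM_IC50 over FPM_IC25 (horizontal axis) for 30 tested members, with bars of 1 SE and a dashed line of equal effects. The 9 named members, whose dose effects differed between particles, spread from -1.85 to 1.64 on the SRM axis and stay between -0.53 and 0.23 on the FPM axis.

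Genes that work with integrins and laminins were read against all tested genes, of which 7.96% were called higher and 9.59% lower at SRM_IC50 against UNT. Of 34 adaptor and signalling genes, 3 rose, a share near that of all genes, and 8 fell, with a median log2 fold change of -0.12, against 0.00 over all genes. PARVG, a parvin of blood cells, had 1.76 (adjusted p = 0.00424, SE 0.39), PTK2B, a focal adhesion kinase relative, had -0.88 (adjusted p = 0.000198, SE 0.13), and VCL, the actin linker vinculin, had 0.80 (adjusted p = 0.00191, SE 0.16). Vinculin averaged 731 ± 138 CPM at SRM_IC50 and 421 ± 74.95 CPM in UNT (n = 3 each, ± SD). In the difference of dose effects 2 adaptor genes were above 0, near the 6.59% of all genes called there, and 8 were below, where 8.01% were.

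Of 25 tested basement membrane partners of the laminins, 2 were higher, again near the share of all genes, and 5 lower at SRM_IC50 than in UNT, with a median log2 fold change of 0.09. NPNT, the nephronectin that ITGA8 binds, had -1.48 (adjusted p = 2.61e-06, SE 0.15) and averaged 7.29 ± 1.01 CPM at SRM_IC50 and 20.4 ± 2.75 CPM in UNT. Receptor and ligand thus differed in direction, though the ITGA8 libraries overlapped UNT and its call was lost in 7 of 17 other settings. FREM2, a basement membrane protein of embryonic epithelia, had -0.99 (adjusted p = 0.0105, SE 0.25), and FBLN1, a fibulin, had -0.91 (adjusted p = 4.46e-06, SE 0.09). Of 14 other laminin receptors, 3 were higher and 4 lower, with CD44, a hyaluronan receptor, at 0.70 (adjusted p = 0.000218, SE 0.11), the syndecan SDC4 at -0.63 (adjusted p = 0.000383, SE 0.10) and BCAM, a receptor of the LAMA5 chain, at -0.58 (adjusted p = 0.000131, SE 0.09). The 4 tested hemidesmosome partners of ITGB4 had a median log2 fold change of -0.07 at SRM_IC50 against UNT. Of these, 1 was called between the SRM doses, the tetraspanin CD151, with -0.42 (adjusted p = 0.0476, SE 0.15). In that comparison 26.9% of all tested genes were called, so this count is near the share of all genes.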

How the data were processed

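Polyadenylated RNA of 15 libraries, 3 in each of 5 groups, was sequenced with a directional kit, per the labels' protocols. The authors deposited raw read counts per gene and FPKM values (fragments scaled to gene length and library size). Reads were processed with FastQC 0.11.7, HISAT2 2.2.1, SAMtools 1.10 and featureCounts of Subread 2.0.15 on GRCh38, with DESeq2 also named, per the submitters' processing notes. Not given in the sources used here are the annotation release, the strand setting and how multimapping reads were handled. 1 deposited column belonged to no sample (gene length).

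For the tests, edgeR 4.0.16 (R 4.3.3) was run on the counts: genes passing filterByExpr (19012 of 60675), TMM scaling, robust quasi-likelihood fit over all 15 libraries, so that groups share the estimate of spread, and Benjamini-Hochberg adjustment over all genes tested, called under 0.05. The dose effects of the particles were compared by an interaction contrast. CPM values are scaled by TMM, and FPKM values were used as deposited, without a test, for levels and shares. A floor of 3 counts was 0.0504 to 0.309 CPM, and it covers counting error only, since PCR copies are not independent molecules. The fit was tested on simulated data. Gene positions are from GENCODE 29 on GRCh38, which placed 57055 genes, and promoter windows are from RefSeq on GRCh38.p14. Summaries and figures were made with Python 3.11.15.

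Values of 1 tested member are not reported here, though counts of members include it. Members and lists were chosen with earlier results of these data known. Values in every library are given for called members of at least 1 CPM on average, up to 12 at SRM_IC50 against UNT and up to 6 in each other comparison by size of change, and up to 3 called genes of each related list are named. What a replicate number marks is not stated. Between the 2 FPM doses same-numbered libraries deviated together (correlations 0.298, 0.538 and 0.513). In each other comparison at least 1 pair was under 0.1, while other pairs were higher, as at SRM_IC50 against UNT (0.713, 0.0167 and 0.786). Whether the numbers mark a shared batch is therefore not known. Alternatives were DESeq2 1.42.0, its size factors, no filter, the replicate block, a GC correction, limma 3.58.1 on log2(FPKM + 1) and log2(FPKM + 0.1), members without an opposite-strand gene within 5 kb, leaving out the FPM libraries, and leaving out each replicate in turn.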

Additional observations from a re-analysis of the deposited data

Results flagged for a closer look

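For 10 of the 31 tested members the log2 change between doses differed between SRM and FPM by edgeR's quasi-likelihood test of the difference itself. Of these, 9 are given. The difference, SRM minus FPM, was -1.97 for ITGB4, -1.86 for ITGB6, -1.02 for LAMB3, -1.0 for LAMA5, -0.96 for ITGB5 and -0.65 for LAMB1. It was 0.76 for ITGA6, 0.94 for ITGA8 and 2.17 for LAMC3. For ITGA8 the log2 change was 0.42 between the SRM doses and -0.52 between the FPM doses, and neither passed the test on its own. The same comparison called 14.6% of all tested genes. Groups of 3 libraries are too small for a search for single outlying libraries.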

How the results depend on the processing

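Of 39 calls of members over the comparisons, 31 held on leaving out each replicate in turn and 25 under every setting that could be run, and 0 changed direction. At SRM_IC50 against UNT, where 11 members were called, 17 were called of 38 with no filter on low counts, 7 of 21 by limma on log2(FPKM + 1) or log2(FPKM + 0.1), and 2 of the 4 tested members that lack an opposite-strand gene within 5 kb. At SRM_IC25 against UNT, where 0 were called, DESeq2 called 2, no filter gave 1 and the replicate block 5. At FPM_IC50 against UNT, where 3 were called, limma without a filter called 1, and members with no opposite-strand gene gave 0. At FPM_IC25 against UNT, where 1 was called, DESeq2 and its size factors in edgeR each gave 2, no filter 3, the replicate block 6, the replicate block with GC correction 4, and limma 2 at either pseudocount and 2 without a filter. Between the SRM doses members with no opposite-strand gene gave 2, against 14. For the difference of dose effects they gave 2 and limma without a filter 6, against 10. Of the members called among genes with no opposite-strand gene, 2 of 2 kept their call at SRM_IC50 against UNT, between the SRM doses and for the difference of dose effects, so the lower counts there are those of a smaller set. At FPM_IC50 against UNT ITGB6 was in that set and lost its call, where 1 gene of all was called, against 2585. The cause of this and of the other shifts was not tested. Besides single libraries, limma at either pseudocount ended the calls of ITGA8 at SRM_IC50 against UNT and of LAMA5 in the difference of dose effects. Limma without a filter ended those of LAMA2 and LAMB3 at SRM_IC50 against UNT, ITGB4 and ITGB2 at FPM_IC50 against UNT, ITGA9 and ITGB8 between the SRM doses, and LAMB3 and ITGA8 in the difference of dose effects. The GC correction ended those of ITGB4 at FPM_IC50 against UNT and of LAMA5 and LAMB3 in the difference of dose effects.

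Leaving out 1 replicate in turn gave 9 to 12 calls at SRM_IC50 against UNT, 0 to 3 at FPM_IC50 against UNT, 0 to 2 at FPM_IC25 against UNT, 14 to 17 between the SRM doses and 8 to 11 for the difference of dose effects. The replicate block gave 16 calls at SRM_IC50 against UNT, 4 at FPM_IC50 against UNT, 17 between the SRM doses, 15 for the difference of dose effects and 0 between the FPM doses. The members that it added at SRM_IC50 against UNT were ITGA3, ITGA4, ITGA9, ITGAV and LAMA5, which did not pass in the main fit. Whether a block by replicate number is right for these samples is not known. Over all genes at SRM_IC25 against UNT, 831 were called, 2718 with the replicate block and 0 with the GC correction. Depth limits the 7 untested members, whose counts reached at most 16.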

Other observations

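Ligands of RGD-binding and other integrins also changed. Of 22 tested of 25 listed, 5 were higher and 8 lower at SRM_IC50 than in UNT, where 7.96% of all tested genes were called higher and 9.59% lower, with a median log2 fold change of -0.22, against 0.00 over all genes. POSTN, the matrix protein periostin, averaged 17.8 ± 3.804 CPM at SRM_IC50 and 50.4 ± 8.66 CPM in UNT, a log2 fold change of -1.48 (adjusted p = 0.000236, SE 0.23) by edgeR. FN1, fibronectin, averaged 1451 ± 425 CPM at SRM_IC50 and 3252 ± 583 CPM in UNT, a log2 fold change of -1.16 (adjusted p = 0.00225, SE 0.24). Its main receptor chain ITGA5 did not pass the test in that comparison. FGB and FGG, chains of fibrinogen, were at 0 in every library.

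TGFB1, whose latent form is a ligand of the pairs of ITGAV with ITGB6 and ITGB8, was the 1 listed ligand called at FPM_IC50 against UNT, with a log2 fold change of 0.80 (adjusted p = 7.98e-06, SE 0.09). It was also the 1 called at FPM_IC25 against UNT, with 0.68 (adjusted p = 4.41e-05, SE 0.09), and at SRM_IC25 against UNT, with 0.40 (adjusted p = 0.0307, SE 0.09). The call at SRM_IC25 was lost under 11 of 16 other settings, among them leaving out any 1 of the 6 libraries (adjusted p between 0.0511 and 0.164) and the GC correction (log2 fold change 0.16, adjusted p = 0.79). Exons of an opposite-strand gene overlap TGFB1, and the strand setting of the counting is not given. These comparisons share the UNT libraries.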
